A study of Homo sapiens with 6 samples.

Results

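The transcription factor genes of the stratified squamous lineage, TP63, SOX2, KLF4, KLF5, GRHL2, GRHL3, TFAP2A, TFAP2C and ZNF750, were followed in KYSE150, a human cell line established from a squamous cell carcinoma of the oesophagus. These 9 genes were chosen by symbol, each matched to 1 Entrez identifier among the 40448 listed, and 8 of them were above 0 in enough libraries to be tested. The NCCRP1 clones had been stably transfected with a human NCCRP1 expression vector (clones 1, 6 and 17). The mock clones carried the pIRES2-EGFP vector alone (clones 1, 4 and 5), and each clone gave 1 library of total RNA depleted of ribosomal RNA. All 6 libraries thus came from stable transfectants of 1 cell line grown from single clones, and the untransfected parent line was not analysed here. Values are log2 RPKM, that is, the log2 of reads per kilobase of transcript, scaled to the library's total reads, and a difference is NCCRP1 minus mock.

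In stratified epithelium such as the oesophageal lining, basal cells divide and their daughters differentiate as they move upwards. The p53 relative p63 holds the basal programme, together with SOX2, KLF5 and the AP-2 factors, whereas KLF4, ZNF750 and the Grainyhead-like factors GRHL2 and GRHL3 act in junction formation, barrier formation and terminal differentiation. SOX2 and TP63 lie on the long arm of chromosome 3, which is often amplified in squamous cancers.

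The libraries carried 12477 to 12821 genes above 0, and their depth, read from the whole-read steps of microRNA genes, was about 12290000 to 18070000 reads. No pair of libraries held an equal value among the 11927 genes above 0 in all 6, and mock clone 5 had the lowest correlations with the others (r across genes of 0.971 to 0.977). The transfected gene NCCRP1 was at 6.19, 8.07 and 6.71 in NCCRP1 clones 1, 6 and 17 and listed at 0 in every mock clone. Squamous keratin KRT5 stood at 10.86, 10.23 and 9.54 in the NCCRP1 clones and 10.36, 9.95 and 10.19 in the mock clones. The other squamous keratins examined, KRT14, KRT15, KRT6A and KRT17, had lower means in the NCCRP1 clones. Their differences were -1.57, -1.43, -0.61 and -0.90, and none passed the test described below. KRT14 was at 2.23, 1.89 and 1.11 in the NCCRP1 clones and 4.22, 3.71 and 1.995 in the mock clones. NCCRP1 clone 1 and mock clones 1 and 4 were read in sequencing run 15, and NCCRP1 clones 6 and 17 and mock clone 5 in run 14. Nothing in the labels says how many transfections the clones came from, so p-values measure the spread between these libraries. In bulk RNA, fewer cells expressing a gene and less RNA per cell cannot be told apart.

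The 9 factors spanned a wide range of levels, in an order that was partly fixed across clones. GRHL2 was the highest of them in all 6 libraries and TP63 came next in all 6. TFAP2A had rank 6 in each library, above SOX2 and ZNF750, and GRHL3 was listed at 0 throughout. The middle ranks differed between the groups. KLF5 had ranks 4, 5 and 5 in NCCRP1 clones 1, 6 and 17 and rank 3 in each mock clone, while TFAP2C had ranks 3, 4 and 4 in the NCCRP1 clones and rank 5 in each mock clone. These are ranks of log2 RPKM, which is per length, within 1 library.

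**Figure D1:**
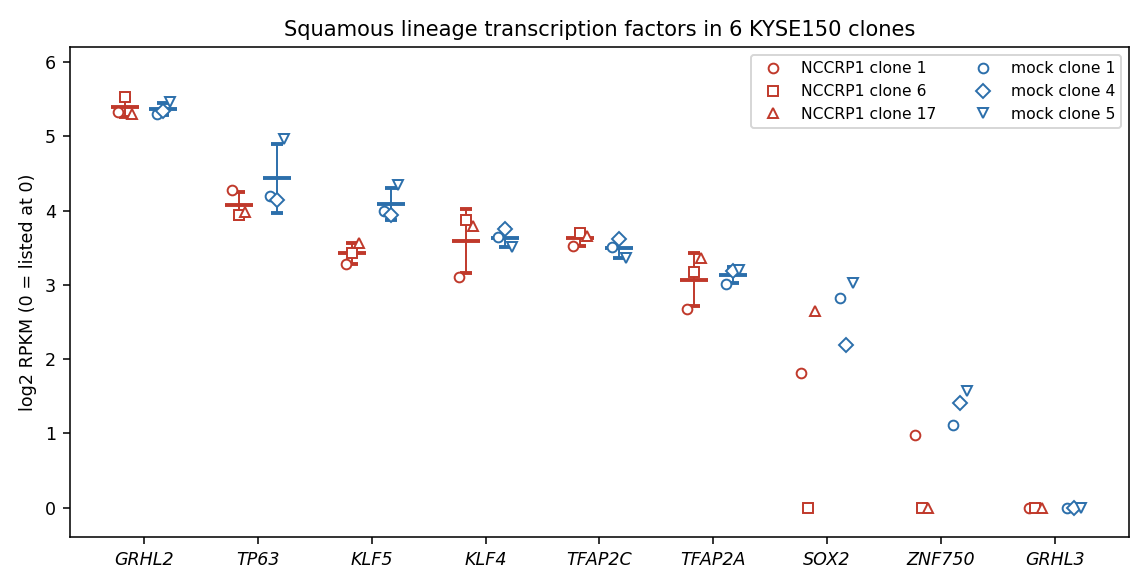
Log2 RPKM (vertical axis) of the 9 factors, with 1 point per clone, NCCRP1 clones in red and mock clones in blue; bars are the mean and SD of 3 clones and are left out for genes listed at 0 in any library. KLF5 is lower in all 3 NCCRP1 clones (3.28 to 3.56) than in any mock clone (3.94 to 4.34), while GRHL2 lies between 5.30 and 5.54 in all 6.

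No factor passed the test across all 12737 tested genes (limma, Benjamini-Hochberg adjusted p under 0.05), where 13 genes or 0.102% were called. At an unadjusted p under 0.05, KLF5 and ZNF750 had lower values in the NCCRP1 clones, as did 3.79% of all tested genes. The same pair had every NCCRP1 clone below every mock clone, 2 of 8 tested factors, as had 7.05% of all tested genes. No factor was higher in every NCCRP1 clone, against 5.71% of tested genes. ZNF750 was above 0 in only 1 NCCRP1 clone and so entered the test through the mock clones, where it is higher. These counts over tested members are therefore given as a description only. The median log2 difference was -0.21 over the 8 tested factors and -0.02 over all tested genes, and for 6 of the 8 the NCCRP1 mean was the lower, against 53.3% of all tested genes. The median of the factors was -0.07 with a mean log2 of at least 1, which leaves out ZNF750, and -0.03 with quantile normalization, which leaves out ZNF750 and SOX2.

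**Figure D2:**
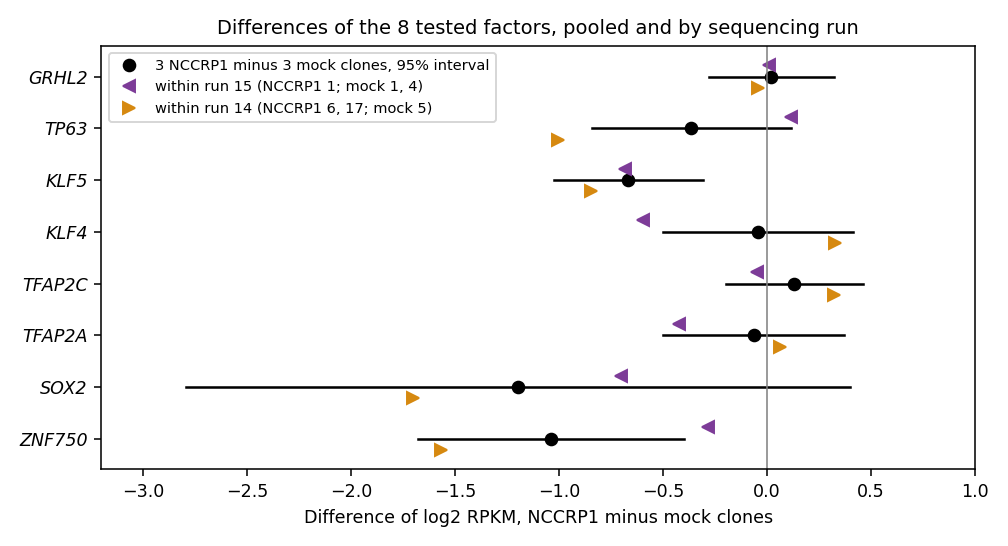
Difference of log2 RPKM, NCCRP1 minus mock (horizontal axis), for the 8 tested factors, with limma's 95% interval (black) and the differences within run 15 (purple) and run 14 (orange), which have no test. The interval excludes 0 before adjustment for KLF5 (-1.02 to -0.31) and ZNF750 (-1.68 to -0.40). ZNF750 entered the test through the mock clones and has listed zeros in NCCRP1 clones, so its interval is no support. Within runs, TP63, KLF4, TFAP2A, TFAP2C and GRHL2 change sign.

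KLF5, a zinc-finger factor of proliferating basal cells, was at 3.28, 3.43 and 3.56 in NCCRP1 clones 1, 6 and 17, whereas mock clones 1, 4 and 5 stood at 3.99, 3.94 and 4.34. The groups did not overlap. The means were 3.42 ± 0.14 and 4.09 ± 0.22 (SD, n = 3 each), a log2 difference of -0.67 (SE 0.16), or 0.63 times the mock level, with an unadjusted p of 0.00179 and a limma adjusted p of 0.257. Within run 15 the clones differed by -0.68 and within run 14 by -0.85, and KLF5 was lower in all 15 alternative fits (-0.76 to -0.47, limma adjusted p from 0.131 to 0.518). About 640 to 1211 reads lay behind each value, taking the GENCODE exon length of 3749 bases.

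KLF5 lies on chromosome 13, and the genes around it were also lower in the NCCRP1 clones. The median deviation of its 30 nearest expressed neighbours from their own means was -0.12, -0.13 and -0.07 in NCCRP1 clones 1, 6 and 17, whereas mock clones 1, 4 and 5 stood at -0.05, 0.07 and 0.25. With each clone's neighbour shift subtracted, the KLF5 difference was -0.47 (limma adjusted p = 0.358). The neighbours of the other tested factors differed between groups by less, from -0.10 for KLF4 to 0.05 for GRHL2.

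KLF4, the relative of KLF5 that acts in suprabasal cells and barrier formation, did not share its pattern. It was at 3.10, 3.88 and 3.80 in NCCRP1 clones 1, 6 and 17 and at 3.64, 3.76 and 3.51 in mock clones 1, 4 and 5. NCCRP1 clone 1 was the lowest of all clones, and the other NCCRP1 clones were the highest. The difference of -0.04 (95% interval -0.50 to 0.41, limma adjusted p = 0.992) was made up of -0.60 within run 15 and 0.33 within run 14. The chromosome 9 neighbours of KLF4 were also lowest in NCCRP1 clone 1 (-0.36), against 0.12 and 0.10 in NCCRP1 clones 6 and 17 and -0.06, -0.01 and 0.22 in mock clones 1, 4 and 5. Their part in the KLF4 values was not tested.

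Within each library, KLF5 minus KLF4 was 0.181, -0.45 and -0.24 on the log2 scale in NCCRP1 clones 1, 6 and 17 and 0.346, 0.184 and 0.83 in mock clones 1, 4 and 5. KLF5 was thus the higher of the pair in every mock clone and in NCCRP1 clone 1, and KLF4 in NCCRP1 clones 6 and 17. The highest NCCRP1 value lay just under the lowest mock value.

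ZNF750, a p63 target that drives terminal differentiation and represses progenitor genes with KLF4 and the corepressors RCOR1, KDM1A and CTBP, stood near the floor of the listed values. It was at 0.98, 0 and 0 in NCCRP1 clones 1, 6 and 17, whereas mock clones 1, 4 and 5 stood at 1.12, 1.41 and 1.57. No value below 0 was listed in any library, so levels under 1 RPKM cannot be read. A listed 0 can also stand for a missing estimate, since abundant genes such as TPT1 and UBB also stood at 0 in each library. No fold change is therefore given. The listed values differed by -1.04 (unadjusted p = 0.00435, limma adjusted p = 0.342), with -0.29 within run 15 and -1.57 within run 14. Over the 13 alternative fits that could test it, the limma adjusted p ranged from 0.0637, without NCCRP1 clone 1, to 0.704. Without that clone, the NCCRP1 values left were listed zeros, which have no spread. ZNF750 entered the test through the mock clones, where it is higher, so none of these p-values is support. With log2(RPKM + 0.1) the difference was -3.29 (limma adjusted p = 0.576), since it depends on the number put in place of a listed 0. Its mock values correspond to about 98.9 to 176 reads, and 1 RPKM to about 45.6 to 67.1 reads of this gene over the 6 libraries. In GENCODE v29, ZNF750 lies inside TBCD on the opposite strand, and TBCD was at 5.34, 5.15 and 4.95 in the NCCRP1 clones and 5.25, 5.22 and 5.13 in the mock clones. The sources used here do not say whether the authors' counting used strand, so the ZNF750 value is uncertain.

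TP63, the p53-family factor that specifies basal squamous cells, was at 4.28, 3.94 and 3.99 in NCCRP1 clones 1, 6 and 17 and at 4.19, 4.14 and 4.97 in mock clones 1, 4 and 5. The groups overlapped, and mock clone 5 stood above the rest. The means were 4.07 ± 0.19 and 4.43 ± 0.46 (SD, n = 3 each), and the difference of -0.36 had a limma adjusted p of 0.799. It was 0.11 within run 15 and -1.004 within run 14, where mock clone 5 is the sole mock clone, and -0.10 without mock clone 5. The gene value sums the transcripts from the distal TP63 promoter and from the internal promoter of the ΔN form, which the files do not separate.

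SOX2, a stem cell factor of the foregut epithelium and an oncogene of squamous cancers, varied most among clones. It was at 1.81, 0 and 2.65 in NCCRP1 clones 1, 6 and 17, whereas mock clones 1, 4 and 5 stood at 2.83, 2.195 and 3.03. NCCRP1 clone 17 lay within the mock range, clone 1 below it, and clone 6 was listed at 0, which can also stand for a missing estimate. The listed values differed by -1.197 (95% interval -2.79 to 0.40, limma adjusted p = 0.791), by -0.45 without NCCRP1 clone 6, and by -2.31 with log2(RPKM + 0.1). The difference was -0.70 within run 15 and -1.70 within run 14. The values above 0 rested on about 146 to 328 reads of a 2513-base transcript, and 1 RPKM would be about 39.9 reads in NCCRP1 clone 6. The surrounding chromosome 3 genes had a median deviation of 0.00391 in that clone. SOX2-OT, the long noncoding RNA in whose locus SOX2 lies, was listed at 0 in all 6 libraries.

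GRHL2, a factor that maintains epithelial junctions through targets such as CDH1 and CLDN4, varied least. It was at 5.33, 5.54 and 5.31 in NCCRP1 clones 1, 6 and 17 and at 5.30, 5.35 and 5.47 in mock clones 1, 4 and 5. The groups overlapped, with means of 5.39 ± 0.13 and 5.37 ± 0.09 (SD, n = 3 each). The 95% interval of the difference, -0.28 to 0.32, leaves room for changes of up to about that size (limma adjusted p = 0.995). GRHL2 exceeded TP63 by 1.05, 1.60 and 1.32 log2 units in the NCCRP1 clones and by 1.11, 1.204 and 0.50 in the mock clones. Its relative GRHL3, which activates barrier genes such as TGM1, was listed at 0 in every library. The antisense neighbour STPG1, which overlaps GRHL3, was at 2.48 to 2.63.

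The AP-2 factors of basal keratinocytes had no group difference beyond their spread. TFAP2C was at 3.52, 3.70 and 3.66 in NCCRP1 clones 1, 6 and 17 and at 3.52, 3.61 and 3.36 in mock clones 1, 4 and 5 (difference 0.13, 95% interval -0.20 to 0.46, limma adjusted p = 0.946). TFAP2A was at 2.67, 3.17 and 3.36 in the NCCRP1 clones and at 3.01, 3.19 and 3.21 in the mock clones (difference -0.07, 95% interval -0.50 to 0.37, limma adjusted p = 0.989). As with KLF4, NCCRP1 clone 1 was the lowest of the 6 for TFAP2A. TFAP2C was the higher of the pair in every library, by 0.85, 0.53 and 0.30 in the NCCRP1 clones and 0.51, 0.42 and 0.15 in the mock clones. The antisense gene TFAP2A-AS1 overlaps TFAP2A and was at 1.52, 1.63 and 2.08 in the NCCRP1 clones and 1.08 to 1.77 in the mock clones, so reads of the pair may be mixed.

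**Figure D3:**
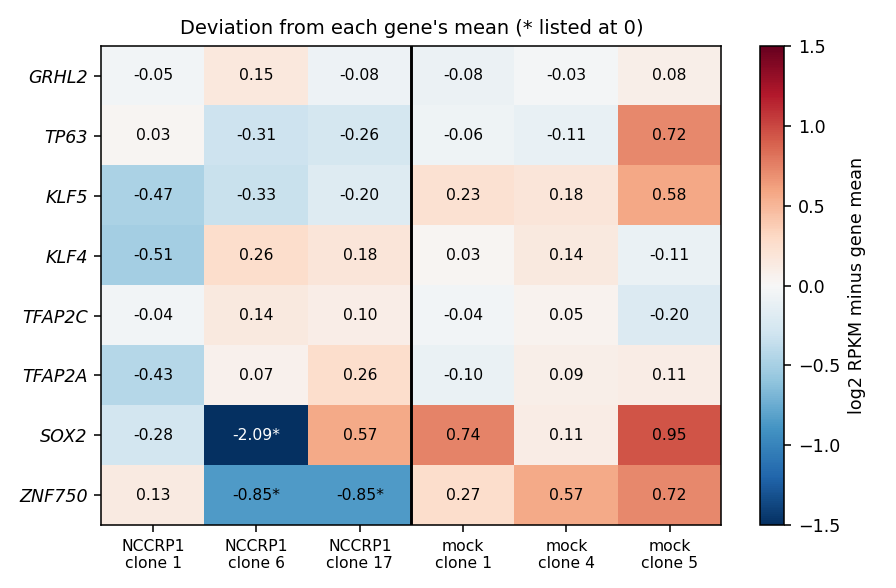
Deviation of each tested factor (rows) from its own mean over the 6 clones (columns), in log2 RPKM; colour runs from -1.5 to 1.5, the line parts NCCRP1 from mock clones, and an asterisk marks a value listed at 0. Mock clone 5 is the highest clone for TP63, KLF5, SOX2 and ZNF750, and NCCRP1 clone 1 the lowest for KLF5, KLF4 and TFAP2A.

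Individual clones thus carried much of the variation. Mock clone 5 had the highest value of the 6 clones for 4 of the 8 tested factors and the lowest for TFAP2C. The mean deviation over the 8 factors was -0.20, -0.37 and -0.03 in NCCRP1 clones 1, 6 and 17 and 0.12, 0.12 and 0.36 in mock clones 1, 4 and 5, listed zeros included. Without mock clone 5, the median difference of the factors was -0.10.

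KLF5, with the lowest unadjusted p, and SOX2, with the widest spread, are shown with the 150 bases before their RefSeq start on the plus strand of GRCh38.p14, a later build than the authors' hg19. The KLF5 stretch is chr13:73054826-73054975 and the SOX2 stretch chr3:181711775-181711924. Capitals mark the letters CACCC (KLF, here as GGGTG on the other strand), CATTGT (SOX) and GCCNNNGGC (AP-2), each searched on both strands.
KLF5: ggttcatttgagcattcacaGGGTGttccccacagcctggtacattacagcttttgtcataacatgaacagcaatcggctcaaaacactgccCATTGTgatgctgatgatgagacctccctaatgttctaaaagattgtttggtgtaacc
SOX2: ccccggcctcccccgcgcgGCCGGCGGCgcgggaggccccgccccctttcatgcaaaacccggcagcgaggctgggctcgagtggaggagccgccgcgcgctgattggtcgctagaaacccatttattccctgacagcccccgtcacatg

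RefSeq promoter windows (250 bases before to 50 after the start) were matched for 6 of the 9 factors. CACCC was present in those of KLF5, GRHL3 and TFAP2A and in 59.9% of all 35116 windows. CATTGT was in those of KLF5 and GRHL3 and in 10.8% of all windows, and GCCNNNGGC in those of SOX2 and KLF4 and in 23.2% of all windows. The Grainyhead letters AACCGGTT were in none of the 6 and in 0.134% of all windows. The G and C content was 40.7% for KLF5, 43.7% for TP63 and 63.3% for SOX2. A gene may start elsewhere in these cells, and a match is a run of letters only.

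The family relatives of the factors were examined next. Of 31 relatives 17 were tested, and 13 had no value above 0, among them SOX1, SOX3, SOX21, TFAP2B and TFAP2D. None was called by limma, 8 had a higher and 9 a lower mean, and the median difference was -0.03. TP73, which encodes p73, had the lowest p, at 0.14, 0 and 0 in the NCCRP1 clones and 0.61, 0.61 and 0.87 in the mock clones (limma adjusted p = 0.434). Like ZNF750, it entered the test through the mock clones, so this p is no support. KLF16 (difference 0.33), SOX7 (-0.44) and SOX9 (0.49) followed, at limma adjusted p from 0.683 to 0.743. The chromosome 19 neighbours of KLF16 differed by 0.48, more than KLF16 itself. SOX15, the SOX gene with the highest level here, was at 6.00, 6.00 and 6.12 in the NCCRP1 clones and 6.49, 6.37 and 6.07 in the mock clones, well above SOX2 in log2 RPKM. GRHL1, the Grainyhead relative expressed beside GRHL2, was at 1.70, 2.13 and 2.15 in the NCCRP1 clones and 1.86, 2.01 and 1.96 in the mock clones.

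Among 23 other transcription factors of stratified epithelium, 16 were tested and 7 were at 0 throughout. None was called, 8 means were higher and 8 lower, and the median difference was -0.00254. Every NCCRP1 clone was above every mock clone for 4 of the 16, against 5.71% of all tested genes, and below for 1, against 7.05%. EHF, an epithelial ETS factor, was at 3.39, 3.84 and 3.32 in the NCCRP1 clones and 2.19 to 3.11 in the mock clones (difference 1.00, limma adjusted p = 0.272), without overlap. CEBPD, an inducible C/EBP factor, differed by 0.37 and was higher in every NCCRP1 clone (limma adjusted p = 0.615). OVOL2, which represses mesenchymal genes, was lower in every NCCRP1 clone (difference -0.27, limma adjusted p = 0.734).

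Of 15 tested cofactors and ubiquitin ligases that act with or on these factors, 13 had lower means (86.7%, against 53.3% of all tested genes). Every NCCRP1 clone was below every mock clone for 3 of the 15 (20%, against 7.05% of all tested genes). None was called, and the median difference was -0.17. The median was -0.04 without mock clone 5. KDM1A, the demethylase that partners ZNF750, was at 5.42, 5.43 and 5.64 in the NCCRP1 clones and 5.64, 5.78 and 5.94 in the mock clones (limma adjusted p = 0.714). The acetyltransferase EP300 and the corepressor CTBP2 differed by -0.27 and -0.26, at limma adjusted p of 0.824 and 0.83, and the neighbours of CTBP2 by -0.19. The ligases ITCH, WWP1 and FBXW7, which mark p63 or KLF5 for degradation, differed by 0.08, -0.09 and -0.16.

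All 34 basal squamous genes regulated by p63 were tested, and none was called. Their means were higher in 13 and lower in 21, with a median difference of -0.18 that was 0.03 within run 15, -0.23 within run 14 and -0.06 without mock clone 5. FGFR3, a growth factor receptor, was at 2.19, 3.15 and 3.399 in the NCCRP1 clones and 3.93, 3.80 and 3.85 in the mock clones (limma adjusted p = 0.363). The chromosome 4 neighbours of FGFR3 differed by -0.27. The ligand gene BMP7 differed by -0.92 (limma adjusted p = 0.415) and the basal keratin KRT15 by -1.43 (limma adjusted p = 0.54). Every NCCRP1 clone was below every mock clone for 5 of the 34 genes (14.7%, against 7.05% of all tested genes), and above for 4 (5.71% of all tested genes were).

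The squamous differentiation genes regulated by KLF4, ZNF750 or GRHL3 included many listed at 0. Of 36 genes 19 were at 0 throughout, among them IVL, LORICRIN, FLG and SPRR3, and 15 were tested. None was called, 11 had a lower and 4 a higher mean, and the median difference was -0.15, or -0.35 within run 15 and -0.18 within run 14. TINCR, a noncoding RNA of differentiating epidermis, was at 1.76, 1.85 and 2.15 in the NCCRP1 clones and 2.83, 2.85 and 3.06 in the mock clones (limma adjusted p = 0.0976). Its chromosome 19 neighbours differed by -0.29, and their part in the TINCR values was not tested. The transglutaminase gene TGM1 and the kallikrein gene KLK5 were also lower in every NCCRP1 clone. Their log2 differences were -0.86 and -0.63 (limma adjusted p of 0.217 and 0.461). Every NCCRP1 clone was below every mock clone for 4 of the 15 tested genes (26.7%, against 7.05% of all tested genes). No gene of the list was higher in every NCCRP1 clone, against 5.71% of all tested genes. EMP1, an epithelial membrane protein, had a higher mean with overlap (difference 0.75, limma adjusted p = 0.535).

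Junction and protease genes regulated by Grainyhead-like factors were tested in 19 of 19 cases without a call, like GRHL2 itself. Their median difference was -0.04, with 7 means higher and 12 lower. Every NCCRP1 clone was below every mock clone for 3 of the 19 (15.8%, against 7.05% of all tested genes). The reverse held for 1 of them, against 5.71% of all tested genes. The claudin gene CLDN3, the splicing factor ESRP2 and the guanine exchange factor ARHGEF19 were lower in every NCCRP1 clone, with differences of -0.63, -0.38 and -0.29 (limma adjusted p from 0.541 to 0.701), and the neighbours of ESRP2 differed by -0.24. The membrane protease ST14 was higher in every NCCRP1 clone (0.24, limma adjusted p = 0.813). The cadherin gene CDH1 was at 6.88, 7.63 and 6.86 in the NCCRP1 clones and 6.89, 6.81 and 7.37 in the mock clones.

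**Figure D4:**
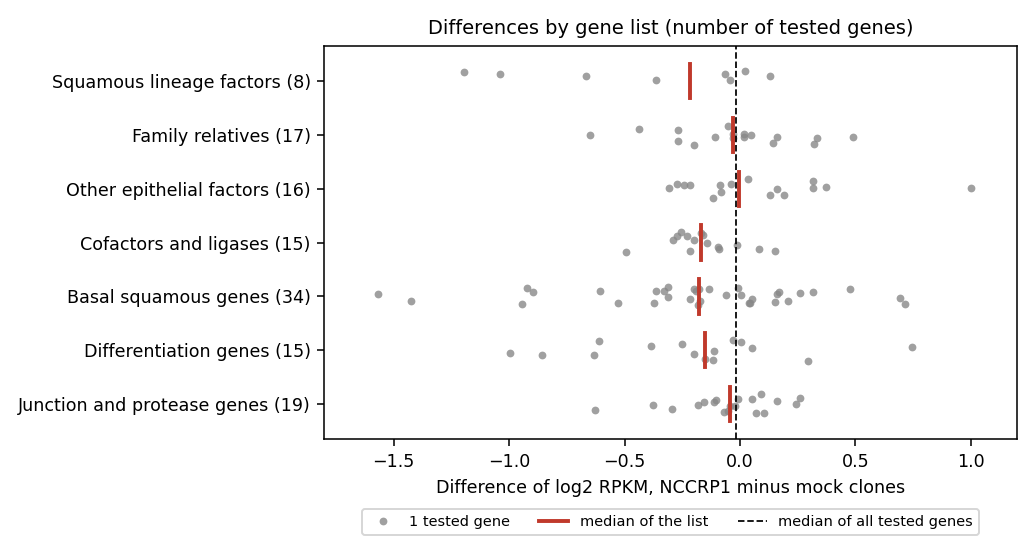
Difference of log2 RPKM, NCCRP1 minus mock (horizontal axis), with 1 grey point per tested gene in each of 7 lists, the list's median in red and the median of all tested genes (-0.02) dashed; the number of tested genes is in brackets. Medians lie between -0.21 and -0.00254, with wide spread in the basal list.

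Most of the factors examined for other lineages were listed at 0 throughout, but FOXA1 and SNAI2 reached higher values than ZNF750 did. Of 14 columnar factors 11 were listed at 0 in all libraries, CDX2, HNF4A and GATA4 among them, and none was called. GATA6 was at 0.20 to 1.16 in NCCRP1 and 0.46 to 0.98 in mock clones, and FOXA1 at 0.84 to 2.15 in NCCRP1 and 1.39 to 2.10 in mock clones. Of 6 matched mesenchymal transition factors 4 were at 0 throughout, ZEB1 and SNAI1 among them. SNAI2 was at 2.16, 1.78 and 1.70 in the NCCRP1 clones and 2.14, 2.30 and 2.43 in the mock clones (limma adjusted p = 0.71). Of 14 markers of blood, endothelial, stromal and melanocytic cells 10 were at 0 in all libraries, including PTPRC, PECAM1, COL1A2 and PDGFRB. The summed level of these markers was 15.95 to 20.15 RPKM in the NCCRP1 clones and 16.34 to 17.53 RPKM in the mock clones, most of it from ACTA2.

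Some genes of these lists followed a factor from clone to clone. Likeness was measured as the root mean square difference of mean-centred log2 RPKM over the 6 libraries, among 117 genes of the other lists above 0 in all of them. FBXW7, PERP and SOX7 lay nearest to TP63 (0.133, 0.134 and 0.169, where TP63's own spread was 0.340), sharing its high value in mock clone 5. KRT15 lay nearest to SOX2 (0.413, against a spread of 1.02), with its lowest value, 5.75, in NCCRP1 clone 6, where SOX2 was listed at 0. TINCR, CSTA and KDM1A lay nearest to KLF5 (0.181, 0.204 and 0.206, against 0.365). GRHL1, ERBB3 and KLF3 lay nearest to TFAP2A (0.0952, 0.121 and 0.128, against 0.218), all low in NCCRP1 clone 1. These are descriptions over 6 libraries, and close profiles occur readily among that many genes.

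**Figure D5:**
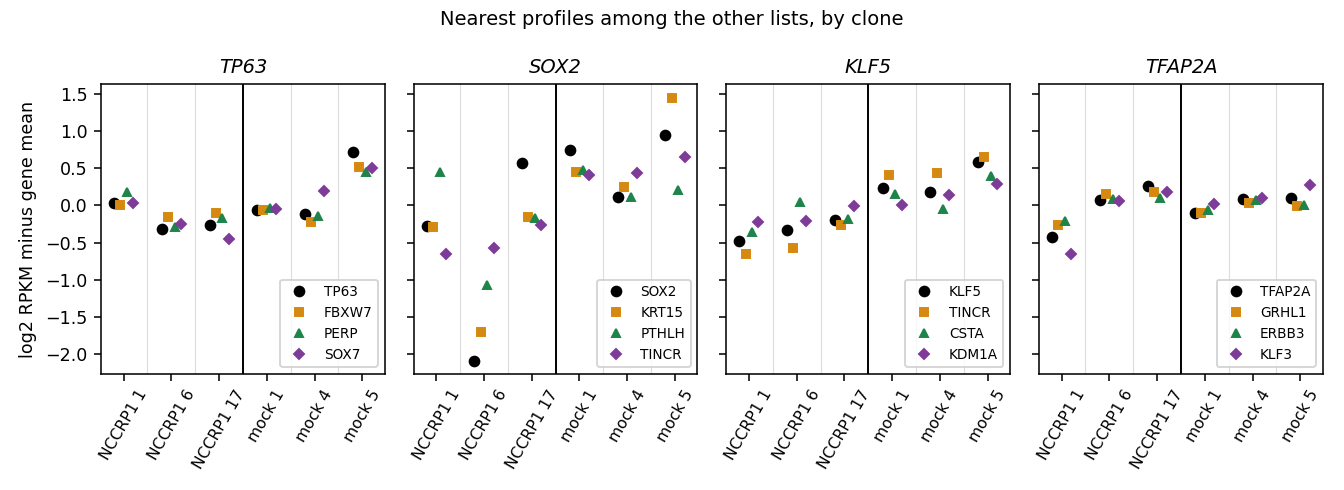
Log2 RPKM minus each gene's mean (vertical axis) in the 6 clones for TP63, SOX2, KLF5 and TFAP2A (black) and the 3 nearest genes of the other lists (colours). TP63 and its nearest genes are highest in mock clone 5, and SOX2 and KRT15 are lowest in NCCRP1 clone 6.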

How the data were processed

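Per the file headers, the authors deposited 1 value named RPKM for each gene and library. The deposited values were log2 RPKM, since 2 to the power of each, times GENCODE v29 exon length in kilobases, summed to about 1100000 per library, as RPKM should. The submitters' processing notes name hg19 and bedtools 2.25.0, but those sources give no aligner.

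Symbols came from RefSeq (GRCh38.p14) and matched 37997 identifiers. Genes above 0 in at least 3 of 6 libraries were fitted by group alone in limma 3.58.1 (R 4.3.3, two-sided), with eBayes set to trend and robust, and adjusted over 12737 genes at 0.05. The fit was also tested on simulated data. The members, lists and tests were chosen with earlier results of these data known. Named from each list were up to 4 genes with the lowest p, besides a few chosen after their values were seen. Some of these are not reported here.

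Depth was the value from a preset range of reads per library at which the largest share of microRNA values under 8 reads lay within 0.005 of whole reads (23.4% to 33.1% per library). That was too few to recover counts, and whole multiples were not searched. Neighbours were the 30 nearest of 8860 protein-coding genes whose log2 RPKM averaged 2 or more. Alternatives were other filters, scales, normalizations, run as a term, neighbour shifts and leaving out each clone.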

Additional observations from a re-analysis of the deposited data

How the results depend on the processing

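None of the 9 factors was called by limma in the reported fit or in any of 15 alternative fits. The number of genes called over the whole table was 13 as reported and 3 with no filter, 4 with log2(RPKM + 1), 1 with log2(RPKM + 0.1), 5 with robust=FALSE, 0 with quantile normalization (920 at an unadjusted p under 0.05), 2 with run as a term and 8 with neighbour shifts subtracted. Leaving out each clone gave 0 genes (without mock clone 5, with 1363 at an unadjusted p under 0.05) to 29 genes (without NCCRP1 clone 1). KLF5, TP63, SOX2 and ZNF750 were lower in the NCCRP1 clones in each fit that could test them. SOX2 and ZNF750 had no value with quantile normalization, nor ZNF750 with a mean log2 of at least 1. Factors with differences near 0 changed sign: GRHL2 was -0.0169 with run as a term and -0.0279 with neighbour shifts subtracted, where KLF4 was 0.0588. TP63, whose difference of -0.36 was not near 0, also changed sign, at 0.115 within run 15 and -1.004 within run 14. Within run 15 TFAP2C was -0.0464, and within run 14 KLF4 was 0.328, GRHL2 -0.0451 and TFAP2A 0.0601. Leaving out each clone gave -0.187 to 0.201 for KLF4, -0.0507 to 0.0687 for GRHL2 and -0.212 to 0.133 for TFAP2A. The cause was not tested. No paired analysis was possible because the labels name no pairs of clones between the groups. ZNF750 and SOX2 are limited by the floor of the listed values at 1 RPKM.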
